A study of Homo sapiens with 6 samples.

Results

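The mRNAs described here encode the main proteins of the cytoskeleton and 3 actin-binding proteins: beta-actin (ACTB) and gamma-actin (ACTG1), the alpha-tubulins TUBA1B and TUBA1C, the beta-tubulins TUBB and TUBB4B, vimentin (VIM), tropomyosin 1 (TPM1), cofilin 1 (CFL1) and profilin 1 (PFN1). They were chosen by gene symbol, and each of the 10 genes had 1 RefSeq transcript in the data, so that 10 of 15739 transcripts are described. All 6 libraries were made from poly(A)-selected RNA of U2OS, a human osteosarcoma cell line, and there was 1 library for each condition. In 2 libraries the RNA was not treated with dimethyl sulfate (DMS), and reverse transcription (RT) was carried out in 150 mM K+ or 150 mM Na+ by the labels. In 2 libraries purified RNA was refolded and modified with DMS in 150 mM K+ or 150 mM Li+, and RT was then carried out in K+. In the last 2 libraries living cells were treated with 8% DMS for 5 min, either unstressed in growth medium or after 2 h of starvation in Hank's balanced salt solution (HBSS) with calcium and magnesium, and RT was again carried out in K+. For the pair without DMS, the cation in the sample label is not the cation in the file name, so these libraries are called by their labels, and which of them was reverse transcribed in K+ was not settled.

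On GRCh37 (hg19) the actin genes lie at chr7:5566779-5570232 (ACTB, minus strand) and chr17:79476997-79479825 (ACTG1, minus strand). The alpha-tubulin genes both lie on chromosome 12, TUBA1B at chr12:49521565-49525178 (minus strand) and TUBA1C at chr12:49658865-49668383 (plus strand), while TUBB lies at chr6:30688129-30693199 and TUBB4B at chr9:140135739-140138159, both on the plus strand. VIM is at chr10:17270240-17279592 and TPM1 at chr15:63334831-63358292 on the plus strand, and CFL1 at chr11:65622144-65625651 and PFN1 at chr17:4848947-4851825 on the minus strand. The transcripts were 1260 (CFL1) to 2487 nt (TUBB) long.

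DMS methylates A and C on the edge that pairs with other bases, so that RT halts at A and C that were unpaired, and it also methylates G at a position that a G-quadruplex, a stack of G tetrads held by K+, protects. Actin polymerises into filaments, with profilin delivering actin monomers, cofilin severing old filaments and tropomyosin lying along and stabilising them. Alpha- and beta-tubulin form the dimers of microtubules, and each ends in an acidic tail rich in glutamate, whose codons are rich in G. Vimentin is the intermediate filament protein of mesenchymal cells. The actin genes belong to the genes that serum switches on through the actin-sensing cofactor MRTF, and the ACTB mRNA carries just after its stop codon a localisation element, the zipcode, that is bound by the RNA-binding protein IGF2BP1. Cells lower their tubulin mRNAs when free tubulin is in excess, and this is read from the first amino acids of the new tubulin chain by the protein TTC5.

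The listed RT stops summed to between 12999691 in unstressed cells and 35371061 in the library labelled K+, and the 10 mRNAs held from 0.966% of them in starved cells to 2.59% in unstressed cells. Of markers of mesenchymal cells, SPARC, COL1A1, FN1, CD44, CDH2 and VIM had stops in every library, the epithelial EPCAM was at most 2.29 stops per 1000000 listed stops and CDH1 at most 0.198, and KRT19 and the leukocyte marker CD3E were at 0. COL1A2, also a mesenchymal marker, was at 0 in all 6 libraries, and RUNX2 was between 4.47 and 17.3 on this scale. With 1 library per condition no difference has a replicate check, no test was made, and the exact 95% intervals given here cover counting error only. Bulk libraries cannot tell fewer RNA molecules from fewer stops on each molecule. Reads were kept at unique positions, and this left gaps in the tubulins: 84.9% of the TUBA1B and 71.8% of the TUBA1C coding sequence is shared, as runs of 30 nt, with other transcripts, and 8.95% and 2.89% of those shared nucleotides were listed in any library. In ACTB 47.5% of the coding sequence is shared, most often with its pseudogene ACTBP2, while VIM shares none. Of the TUBB coding sequence 57.0% is shared, mostly with the pseudogene TUBBP1, yet 98.3% of those nucleotides were listed, so reads of TUBB and of that pseudogene cannot be told apart. The same holds for the shared 36.2% of the PFN1 and 25.0% of the CFL1 coding sequence.

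Starved cells held fewer RT stops on most of these mRNAs than unstressed cells. ACTB had 3043 stops per 1000000 listed stops (SPM) in the library labelled K+, 3011 in that labelled Na+, 3672 and 3280 refolded in K+ and Li+, 5710 (95% exact Poisson interval 5669 to 5751) in unstressed cells and 992 (979 to 1005) in starved cells. It ranked 5 among all transcripts by these stops in unstressed cells and 152 in starved cells. ACTB was thus highest in unstressed cells and lowest in starved cells, 5.76-fold lower than in unstressed cells. ACTG1, the second cytoplasmic actin, had 1574, 1613, 1839, 1715, 2378 and 697 SPM in the same order and was 3.41-fold lower. CFL1 had 1222, 1328, 1456, 1324, 2344 and 498, and was 4.71-fold lower, and PFN1 had 853, 864, 957, 834, 1528 and 383, and was 3.99-fold lower. Both actin-binding proteins thus had, like the actins, their highest level in unstressed and their lowest in starved cells.

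The tubulin mRNAs were lower in starved cells by unequal factors. TUBB4B had 811, 862, 951, 858, 1244 and 212 SPM in the 6 libraries, in the order given for ACTB, and was 5.86-fold lower in starved than unstressed cells. TUBA1C had 438, 432, 495, 462, 708 and 162, a 4.37-fold difference, and TUBA1B had 1227, 1315, 1458, 1298, 2033 and 708, a 2.87-fold difference. TUBB, the member with the most stops in 5 of the 6 libraries, had 4568, 4768, 5440, 4800, 6364 and 2966 and was 2.15-fold lower. Per nucleotide of transcript, and not scaled for the depth of the libraries, TUBB had 33.0 stops when unstressed and 28.4 when starved, and TUBA1C had 5.82 and 2.46. The latter values count as 0 the shared nucleotides that were not listed.

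VIM and TPM1 were nearly level between the cell libraries. VIM had 3538, 3522, 3827, 3721, 3493 and 2987 SPM, 1.17-fold lower in starved cells, and in that library it was the member with the most stops. TPM1, counted on the transcript NM_000366 alone of its many isoforms, was the least covered member, with 130, 129, 126, 127, 59.5 (55.3 to 63.8) and 52.5 (49.6 to 55.4) SPM. TPM1 was 2.11-fold lower in unstressed cells than refolded in K+, and 1.13-fold lower in starved than unstressed cells. In all, 8 of the 10 mRNAs were at least 2-fold lower in starved than unstressed cells and 0 were at least 2-fold higher, where 34.4% of 5883 transcripts with at least 100 stops in both libraries were lower and 17.4% were higher. The median log2 fold over the 5883 transcripts was -0.26.

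**Figure D1:**
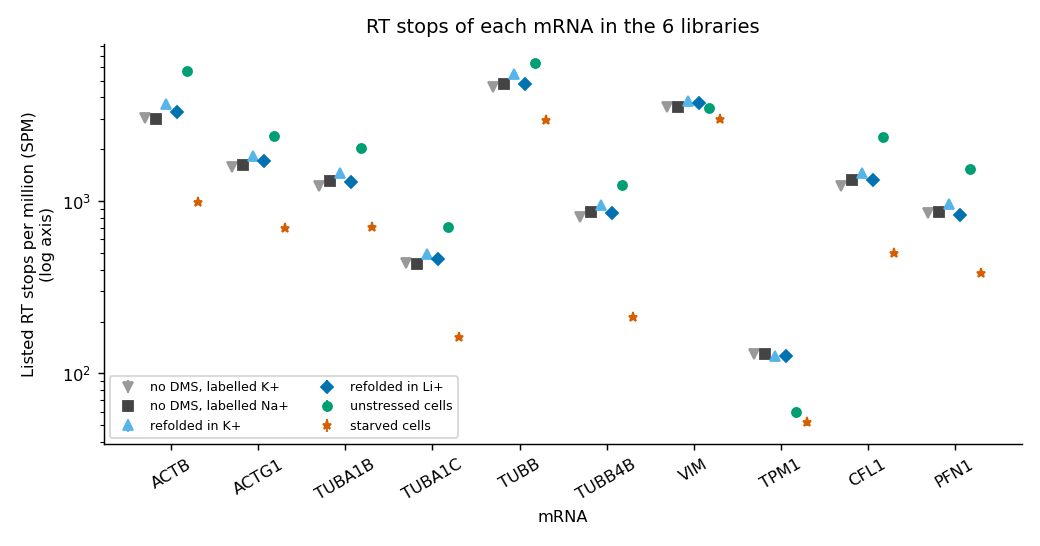
Listed RT stops in SPM (log axis) of each of the 10 mRNAs, with 1 symbol for each of the 6 libraries; vertical bars are exact 95% Poisson intervals and are mostly smaller than the symbols. For 8 mRNAs the starved cells lie lowest and the unstressed cells highest, from 5710 to 992 for ACTB, whereas for VIM all 6 libraries lie between 2987 and 3827.

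The fold between starved and unstressed cells went with the GC content of the transcript. Over 5610 transcripts, which share the same pair of libraries, Pearson's r between GC content and the log2 fold was -0.78 and Spearman's rho was -0.79. The 10 mRNAs have a GC content of 51.0 to 59.7%, above the median of 46.8% over those transcripts. Transcripts of 50 to 55% GC had a median log2 fold of -1.22 and those of 55 to 60% a median of -1.92, and TUBB (-1.10), TUBA1B (-1.52), ACTG1 (-1.77) and PFN1 (-2.00) lay close to these medians. Relative to a cubic trend on GC content, 0 of the 10 mRNAs were at least 2-fold lower and 2 were at least 2-fold higher, where 13.6% and 13.8% of the 5610 transcripts were. The higher pair were VIM, by 1.22 on the log2 scale, and TPM1, by 1.05. ACTB was at -0.94 and TUBA1C at -0.93 relative to the trend, TUBB4B at -0.51 and CFL1 at -0.32, and the others were between -0.14 and 0.09. What sets the trend with GC content was not tested.

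**Figure D2:**
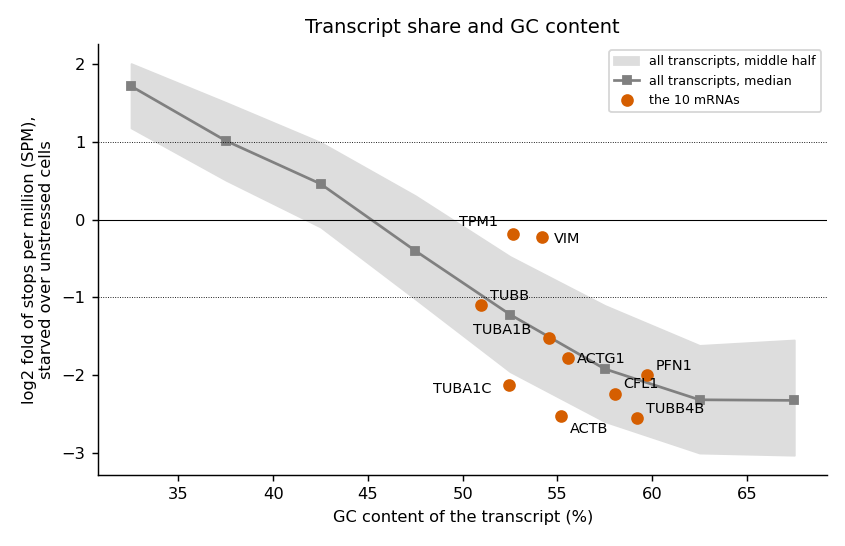
GC content of the transcript (%) against the log2 fold of SPM between starved and unstressed cells, with the 10 mRNAs as labelled points, the median of all transcripts in classes of 5% GC as a line and their middle 50% as a band; dotted lines mark 2-fold. Most of the 10 mRNAs lie within the band, whereas VIM and TPM1 lie above it and TUBA1C and ACTB below it.

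Between unstressed cells and RNA refolded in K+, the log2 fold ranged from -1.08 for TPM1 to 0.69 for CFL1, and TPM1 was the 1 member at least 2-fold lower, where 12.7% of 6580 transcripts were lower and 6.52% higher. Here too the fold went with GC content, with r of 0.72 over 6287 transcripts. ACTB was 1.55-fold, PFN1 1.60-fold and CFL1 1.61-fold higher in unstressed cells, and VIM was 1.10-fold lower. Between RNA refolded in K+ and in Li+ all 10 log2 folds lay between -0.01 and 0.20, so 0 members were 2-fold lower, where 0.17% of 7665 transcripts were. Between refolded RNA and the library labelled K+ without DMS they lay between -0.05 and 0.27, where 0.0783% of transcripts were 2-fold higher and 0.0392% lower, and between the libraries labelled K+ and Na+ between -0.12 and 0.02, where 0.709% were lower. Between starved cells and RNA refolded in K+ 8 members were at least 2-fold lower, the exceptions being TUBB (-0.87) and VIM (-0.36), where 31.2% of transcripts were lower and 11.3% higher.

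Other cytoskeletal mRNAs were compared in the same way. Of a list of 65 further genes, 58 passed the minimum of stops, and 31 of them were at least 2-fold lower and 6 at least 2-fold higher in starved than unstressed cells, with a median log2 fold of -1.32, where 34.4% of all transcripts were lower (53.4% of the list) and 17.4% higher. Genes that crosslink actin, contract it or tie it to membranes were lower in 15 of 25 cases and higher in 0, and relative to the GC trend lower in 8 and higher in 2. The 3 most lowered of them were TLN1, which encodes talin, a link from integrins to actin, with 171 against 4.46 SPM (38.4-fold), ZYX, encoding zyxin of focal adhesions (15.8-fold), and FSCN1, encoding the bundling protein fascin (13.2-fold). FLNA, encoding the crosslinker filamin A, was 12.2-fold lower, and NES, encoding the intermediate filament protein nestin, 17.4-fold lower. All 5 intermediate filament genes tested were lower, and 2 of them were so relative to the GC trend.

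Of 12 genes for actin monomer binding and filament ends, 5 were at least 2-fold higher and 2 lower, and relative to the GC trend 2 were higher and 0 lower. The higher ones that were largest by fold were TWF1, encoding twinfilin (2.41-fold), CAPZA2 (2.38-fold) and CAPZA1 (2.08-fold), encoding subunits of the capping protein, and TMSB4X, encoding the monomer-sequestering thymosin beta 4, with 1599 against 3291 SPM. Of 16 tubulin and microtubule genes 9 were lower and 1 was higher, TBCE, a chaperone of tubulin folding, by 2.43-fold, and relative to the GC trend 3 were lower and 1 higher. TTC5, the reader of tubulin excess, fell short of the minimum, with 64 and 56 stops. Relative to the GC trend, 13 of the 58 genes were at least 2-fold lower and 5 at least 2-fold higher, where 13.6% and 13.8% of all transcripts were. The classes differed in GC content, with a median of 54.997% in the crosslinking, contractile and membrane genes and 44.4% in the monomer and filament end genes, and their median log2 folds, -1.86 and 0.27, were -0.55 and -0.47 relative to the trend. TLN1 was then at -3.42 on the log2 scale and CAPZA1 at 0.00.

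DMS shifted the stops of all 10 mRNAs to A and C, and this shift was smaller in starved cells. The share of stops at A or C was between 43.0 and 56.7% in the library labelled K+ and between 42.4 and 56.4% in that labelled Na+. It was 71.2 to 80.4% refolded in K+, 71.7 to 80.5% refolded in Li+, 78.6 to 86.8% in unstressed cells and 66.4 to 78.7% in starved cells. The ranges without DMS thus lay below all ranges with DMS, and in each of the 10 mRNAs unstressed cells lay above and starved cells below the RNA refolded in K+. The medians over the 953 transcripts described next had the same order, 83.2% in unstressed cells, 76.8% refolded in K+ and 73.2% in starved cells. In each of the 10 mRNAs the share was lower in starved than unstressed cells, from a difference of -8.03 points in VIM to the largest, 79.5 against 66.4%, in TUBA1C, as it was in 99.9% of 953 transcripts with at least 1 stop per nucleotide in all libraries, where the median difference was -9.93 points.

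Most of the loss was at C. In ACTB C took 27.5% of stops in unstressed and 20.6% in starved cells, and A took 51.1 and 47.8%. G took 14.03 and 21.1% there, and U took 7.36 and 10.4%. In CFL1, whose stops in unstressed cells fell on C as often as on A (41.1 and 40.9%), C took 28.6% in starved cells. The share of C was lower in starved cells in 10 of 10 mRNAs, with differences from -13.2 to -6.89 points, and that of G was higher in 10 of 10, by 5.72 to 8.62 points, where 99.8% and 99.9% of the 953 transcripts moved the same way. The share of A was lower in 6 and higher in 4, with the largest rise in TPM1 (4.55 points), where 86.3% of transcripts were lower. TPM1 had no listed stops at U in the cell libraries, which raises its other shares.

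**Figure D3:**
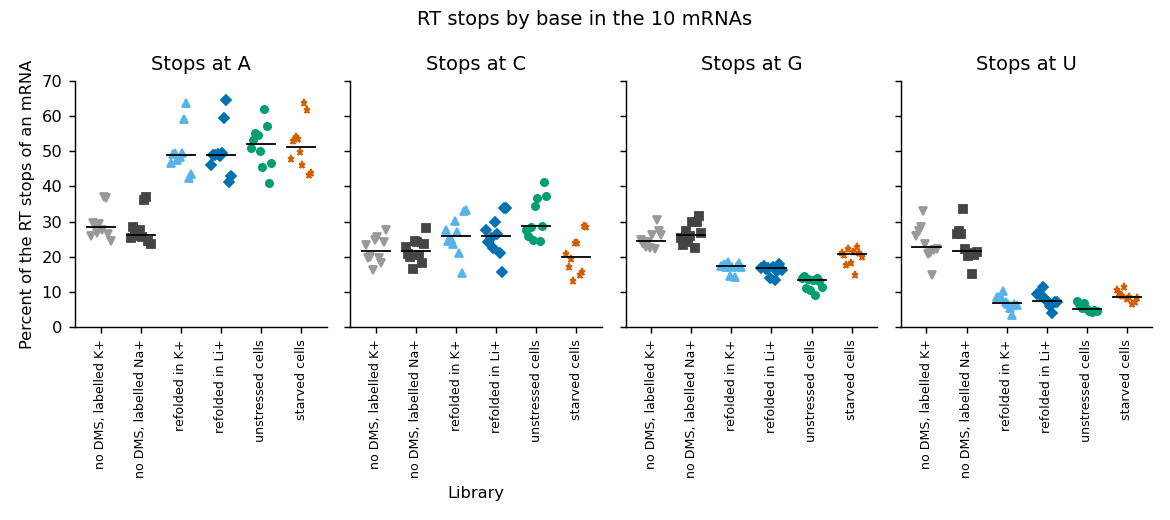
Percent of the RT stops of each mRNA at A, C, G and U in the 6 libraries; each symbol is 1 of the 10 mRNAs and the horizontal line their median, with TPM1 left out at U in the cell libraries, where it had no listed stop. The median share at C falls from 28.6% (unstressed) to 19.9% (starved), and the median at U is 22.9 and 21.7% without DMS, while no mRNA passes 11.4% with DMS.

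Within each mRNA, the stops of treated cells lay nearer the 3′ end than those of refolded RNA. In ACTB 61.4% of stops (exact binomial interval 61.1 to 61.8%) were past the midpoint of the transcript refolded in K+, 82.7% (82.4 to 83.0%) in unstressed cells and 91.3% (90.9 to 91.7%) in starved cells. The same share of TUBB was 40.1, 60.8 and 58.2%, and that of VIM 74.1, 85.0 and 88.8%. It was higher in unstressed cells than refolded in K+ in 10 of 10 mRNAs, as in 85.9% of 944 transcripts, and the median over the 10 rose from 61.8 to 82.3%. Between unstressed and starved cells it rose in 7 and fell in 3 (TUBB, CFL1 and TPM1), where 45.9% of transcripts rose, and the counting intervals of TUBB4B (72.2 and 73.7%) and TPM1 overlapped. At U and G alone, which DMS does not methylate on the pairing edge in the way it does A and C, the share in ACTB was 63.5, 86.3 and 92.4%.

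The pair of cell libraries differed along ACTB more than along TUBB or VIM. In windows of 100 nt, the log2 fold of SPM between starved and unstressed cells ranged in ACTB from -4.21 in the window that begins at nucleotide 301, in the coding sequence, to -1.65 in a window of the 3′ UTR. In TUBB the windows ranged from -1.69 to -0.10. In VIM they ran from -1.01 around the start codon to 0.35 in the 3′ UTR, so that some windows of its 3′ UTR were higher in starved cells while the transcript as a whole was lower. The window that begins at nucleotide 2001, also in the 3′ UTR, was at -0.48. Every window within the ACTB coding sequence was at -2.57 or lower.

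**Figure D4:**
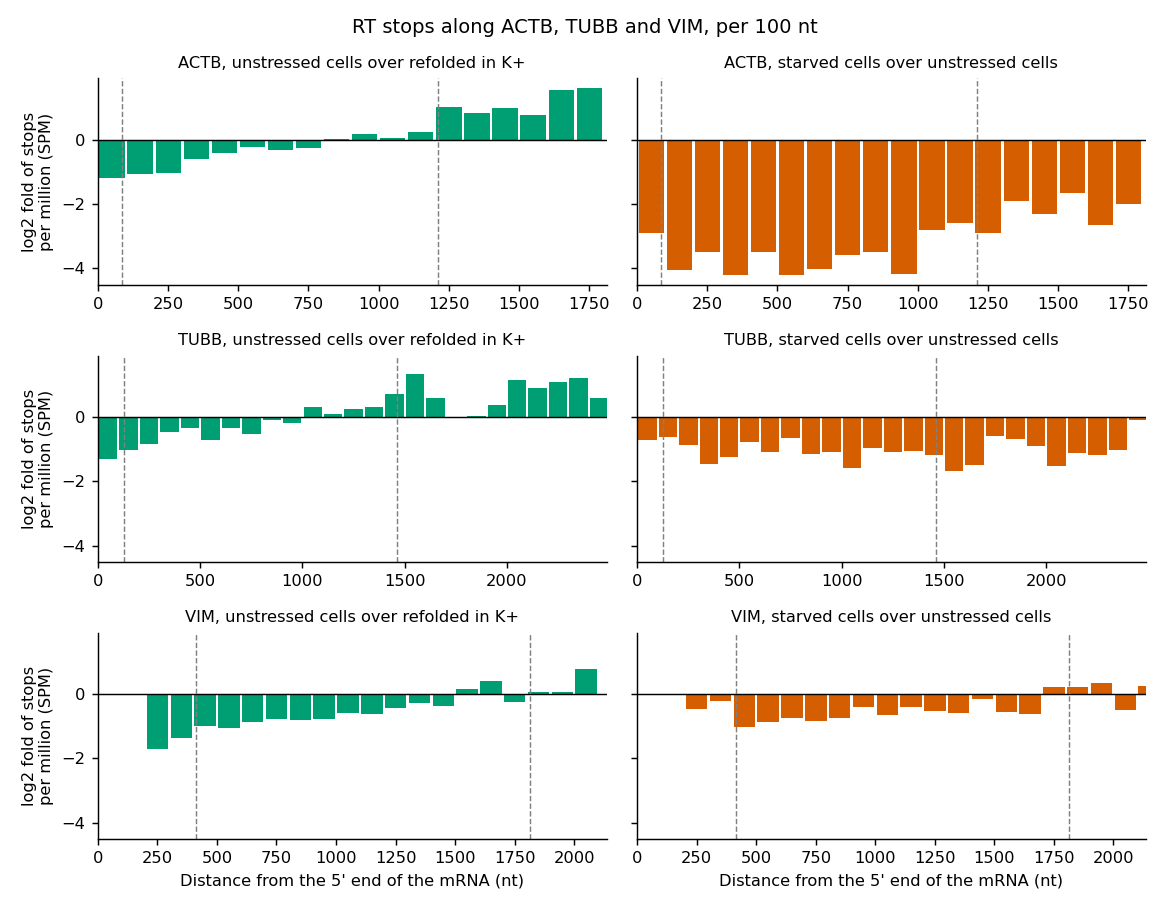
log2 fold of SPM in windows of 100 nt along ACTB, TUBB and VIM, against distance from the 5′ end (nt), for unstressed cells over RNA refolded in K+ (left) and starved over unstressed cells (right); dashed lines mark the start and end of the coding sequence, and windows with fewer than 100 stops in the pair are left out. Left, all 3 mRNAs are below 0 near the 5′ end and above 0 in most windows of the 3′ UTR, and right, ACTB runs between -4.21 and -1.65 while TUBB and VIM run between -1.69 and 0.35.

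Mean stops per A or C in each region, relative to the A and C of the whole transcript, show which regions these were. In ACTB the 5′ UTR was at 1.58 refolded in K+, 0.45 in unstressed and 0.37 in starved cells, the coding sequence at 0.64, 0.38 and 0.23, and the 3′ UTR at 1.69, 2.53 and 2.89. ACTG1 followed the same order, with 1.17, 0.50 and 0.37 in the 5′ UTR and 1.64, 2.30 and 2.58 in the 3′ UTR. TUBB, whose 3′ UTR was below its coding sequence when refolded (0.82 and 1.07), had 1.32 and 0.82 in unstressed cells. The 3′ UTR was above the coding sequence in 8 of 10 mRNAs refolded in K+ and in 9 of 10 in either cell library, TPM1 being the exception in cells (0.67 and 1.22 in unstressed cells). Other transcripts were not counted in this way. Without DMS, in the library labelled K+, the 3′ UTR was already above the coding sequence in ACTB (1.93 and 0.55) and below it in TUBB (0.84 and 1.05).

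Among the pairs of DMS libraries compared, the profile of A and C stops along the mRNAs was by the median most alike between the refolded libraries. Over A and C with at least 20 stops summed over a pair, Pearson's r of log2 stops between K+ and Li+ had a median of 0.93 over the 10 mRNAs, from 0.13 in TPM1 (122 nucleotides) to 0.97 in TUBA1B (241 nucleotides). Between unstressed and starved cells it was 0.76 over 9 mRNAs with at least 50 such nucleotides, from 0.54 in TUBB4B to 0.89 in TUBA1B. It was 0.67 between unstressed cells and RNA refolded in K+ and 0.66 between starved cells and refolded RNA. Nucleotides of 1 transcript share its libraries and its 3′ slope, and other transcripts, with medians of 0.20, 0.04, 0.06 and 0.34 for unstressed against starved cells, unstressed cells against K+, starved cells against K+ and K+ against Li+, were less deeply covered.

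How often single A and C nucleotides changed, against other transcripts, differed between comparisons. Of 4030 member nucleotides, 23.5% (22.2 to 24.8%) differed at least 2-fold between starved and unstressed cells in their share of the A and C stops of the transcript, against 23.6% of 260538 in other transcripts. Between unstressed cells and RNA refolded in K+ it was 31.7% of 4841 against 32.1% (17.3% against 18.3% relative to the stops within 100 nt). Among nucleotides with at least 50 stops these shares were 21.0% against 17.0% and 31.0% against 25.0%, higher in the 10 mRNAs. Between K+ and Li+ it was 2.65% of 5137 against 6.71% (2.49% against 6.38% relative to the stops within 100 nt). Between starved cells and refolded RNA it was 36.0% of 4387 against 26.4%, and ACTB was highest with 60.9%, of which 261 nucleotides were lower and 79 higher. Relative to the A and C stops within 100 nt, this last share was 16.7% against 15.1%, with ACTB at 27.4% and TUBA1C, then the highest, at 29.3%. The share between unstressed and starved cells was then 19.7% against 19.2%, with ACTB at 32.2%, TUBB4B at 24.2% and PFN1 lowest at 12.9% among members with over 100 such nucleotides.

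The nucleotides with the largest changes are named here by base and by distance from the 5′ end of the transcript. Between unstressed and starved cells the largest rises in share were at C27 in the TUBB 5′ UTR (13 and 72 stops), A1961 in the ACTG1 3′ UTR (29 and 97) and A1792 in the ACTB 3′ UTR (26 and 48), the latter 2 close to the poly(A) tail. All 3 of the largest falls were at C in the VIM coding sequence: C1569 (112 and 26 stops), C1377 (48 and 11) and C1206 (49 and 12). Between refolded RNA in K+ and unstressed cells, C1481 of TUBA1C (4 and 47), C2165 of TUBB (10 and 70) and C1754 of ACTG1 (17 and 122), all in 3′ UTRs, rose most. The largest falls were in TUBB, at C96 in the 5′ UTR (98 and 5 stops), at C1458 in the coding sequence (106 and 6) and at A208 in the coding sequence (131 and 8). C1458 lies 4 nt before the end of the coding sequence and was also the largest fall relative to the stops within 100 nt, by 20.6-fold.

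Several ACTB coding nucleotides had stops in refolded RNA and none listed in starved cells: A566 (112 and 0 stops in K+ and starved cells), C753 (99 and 0) and A119 (99 and 0), where a nucleotide with under 3 stops is not listed. The largest rises between refolded RNA and starved cells were at C2432 of TUBB (10 and 55), C1873 of ACTG1 (34 and 104) and, again, A1792 of ACTB (24 and 48). Between K+ and Li+ the largest differences were at C1064 of PFN1 (11 and 45) and at C1748 (88 and 282) and A737 (12 and 39) of ACTB, lower in K+, and at C2360 (41 and 18) and C2358 (45 and 21) of TUBB and C58 of TUBA1C (34 and 16), higher in K+. C2358 and C2360 lie 2 nt apart in the TUBB 3′ UTR.

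In unstressed cells the A with the most stops lay in the 3′ UTR in 9 of 10 mRNAs, TPM1 being the exception, and the C with the most stops in 9 of 10, CFL1 being the exception. Refolded in K+, the strongest A lay in the 3′ UTR in 5 of 10 and the strongest C in 3 of 10, with ACTG1 C94, TUBA1B A163 and VIM C293 among those in the 5′ UTR. No share over other transcripts is given for these counts. Of 944 transcripts, 85.9% had more of their stops past the midpoint in unstressed cells than refolded in K+. The enrichment E is the stop count of a nucleotide over the mean of its transcript. The strongest stops of ACTB, TUBB and VIM, the members with the most stops, and of CFL1 are shown with 10 nt on either side and the stopped base in capitals, on GRCh37 (hg19), to show the sequence around them. The first lies at chr7:5567293-5567313 (minus strand), the second at chr6:30692217-30692237 (plus strand), the third at chr10:17279491-17279511 (plus strand) and the fourth at chr11:65625612-65625632 (minus strand, 5′ UTR).
ACTB A1288: tgagattggcAtggctttatt
TUBB A1515: gtcttactcaActgccccttt
VIM A2045: tactttttaaAaggtattttg
CFL1 C183: gcggctgcagCgctctcgtct

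ACTB A1288 had 381 and 390 stops without DMS in the libraries labelled K+ and Na+, 727 and 1059 refolded in K+ and Li+, 1605 in unstressed cells and 178 in starved cells. Its E was 6.55 and 7.15 without DMS, 17.0 and 19.2 refolded, 39.9 in unstressed and 13.5 in starved cells, so that it stood out most in unstressed cells, the library by which it was chosen. TUBB A1515 had 268, 185, 447, 419, 931 and 369 stops in that order, with E from 2.90 to 28.1. VIM A2045 had 236, 209, 320, 532, 482 and 398, with E of 22.7 in unstressed and 11.9 in starved cells. CFL1 C183 had 172, 178, 369, 693, 514 and 94 stops and was as enriched refolded in Li+ (21.1) as in unstressed cells (21.1).

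Other strongest stops were chosen in unstressed cells too. ACTB C1685, the strongest C of ACTB in 5 of 6 libraries, had 711, 466, 599, 745, 1128 and 336 stops, with an E of 28.0 in unstressed and 25.6 in starved cells. TUBA1B A1651 had 318, 259, 325, 398, 484 and 249 (E of 32.3 and 25.8), and PFN1 A1287 had 89, 118, 240, 271, 432 and 116 (E of 29.3 and 16.7). TUBA1C A1469 had an E of 33.1 in unstressed and 28.3 in starved cells, TUBB4B C1511 21.2 and 6.52, and ACTG1 A1516 21.4 and 10.1. Of the nucleotides of TUBA1B and TUBA1C 32.0% and 36.3% were listed. The unlisted ones lower the mean, so E in these 2 mRNAs is raised against the others. In TPM1 the strongest A, A900, had 14 stops in unstressed cells. The strongest A or C of a member was the same nucleotide in unstressed and starved cells in 2 of 10 mRNAs, in unstressed cells and refolded RNA in 3 of 10, and in K+ and Li+ in 7 of 10. The strongest C alone was the same in K+ and Li+ in 10 of 10. How often other transcripts keep their strongest nucleotide is not given, so these counts have no background.

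A few nucleotides carried much of the signal. In the 7 mRNAs deep enough, the 10% of A and C with the most stops held a median of 44.4% of the A and C stops refolded in K+, 48.2% in unstressed and 48.7% in starved cells, against 34.4, 38.1 and 35.7% over 385 other transcripts. TUBB was the most even member, with 29.3, 34.5 and 31.9%, and TUBA1B the least, with 74.1, 78.8 and 85.0%. In TUBA1B most of the coding sequence was not listed, and its nucleotides count as 0 here. In ACTB the share was 47.5, 60.8 and 65.4%.

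The zipcode of ACTB was examined as its first 54 nt after the stop codon (nucleotides 1213 to 1266). Its first 30 nt are shown to place the stops in it, with A and C, the bases that DMS marks, in capitals, at chr7:5567349-5567378 on the minus strand of GRCh37.
ACTB zipcode, first 30 nt: gCggACtAtgACttAgttgCgttACACCCt

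Relative to all A and C of ACTB, this element was at 2.07 without DMS in the library labelled K+, 2.09 in that labelled Na+, 1.81 and 1.88 refolded in K+ and Li+, 0.68 in unstressed cells and 1.68 in starved cells. It was low in unstressed cells alone. The stretch just downstream (nucleotides 1267 to 1296) went the other way, at 3.01 and 3.55 refolded, 7.38 in unstressed and 4.00 in starved cells. Within the zipcode, C1239 in the run ACACCC had 274 and 373 stops refolded, 82 in unstressed and 32 in starved cells, and A1249 had 253, 306, 43 and 64. As a share of the A and C stops of ACTB, the zipcode was 2.65-fold lower in unstressed cells than refolded in K+ and 2.46-fold higher in starved than unstressed cells. Of 30 windows of 54 nt in ACTB, 1 rose more between these cell libraries, and 3.59% of the 223 windows of the 10 mRNAs and 6.59% of those of other transcripts rose at least 2-fold. Between refolded RNA and unstressed cells 6 of 33 ACTB windows fell more, so the lower level in unstressed cells was not particular to the zipcode within ACTB.

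The first 15 nt of the tubulin coding sequences, which encode the residues read in tubulin autoregulation, could be followed in the beta-tubulins. In TUBB their 6 A and C were at 1.35 and 1.26 relative to the whole transcript without DMS, 1.55 and 1.22 refolded in K+ and Li+, 0.46 in unstressed and 0.75 in starved cells. In TUBB4B they were at 1.19 and 1.23, 1.10 and 1.04, 0.36 and 0.48, the last from 13 stops. Both were lower in cells than in refolded RNA, as was the 5′ UTR before them (in TUBB 1.52 refolded in K+, 0.49 in unstressed and 0.74 in starved cells). In TUBA1B and TUBA1C 0 of these 6 nucleotides were listed.

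Without DMS, strong stops at G in 5 of the 10 mRNAs differed sharply between the libraries labelled K+ and Na+. Counting nucleotides with an E of 10 or more, the 10 mRNAs held 41 in the library labelled Na+, of which 9 were at least 2-fold stronger than in the library labelled K+, where 49.8% of 10439 such nucleotides in other transcripts were. All 9 were at G, as were 85.5% in the other transcripts. The library labelled K+ held 43, and C1684 of ACTB (604 and 267 stops) was the 1 nucleotide at least 2-fold stronger, where 17.1% were. TUBA1B and TUBA1C held 18 and 16 of the 41, and 24 and 17 of the 43. Their unlisted nucleotides lower the mean of the transcript and so raise E, which limits the comparison with other transcripts. The 9 stops at G lay at 6 places, of which 5 are described here, in CFL1, TUBB, TUBA1B, TUBA1C and TUBB4B, and 37.8% of 3602 other transcripts had such a stop, while 4.91% had a strong G that was 2-fold stronger in the library labelled K+. ACTB, ACTG1, VIM, TPM1 and PFN1 had no such stop in either direction. The nucleotides were chosen for this difference, so the values that follow describe it and do not test it.

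The 30 nt that end at the last of these stops at each of the 5 places carry the difference and are shown with runs of 2 or more G in capitals. On GRCh37, CFL1 is at chr11:65622690-65622719 (minus strand, 3′ UTR), TUBB at chr6:30692839-30692868 (plus strand, 3′ UTR), TUBA1B at chr12:49521850-49521879 (minus strand, coding sequence), TUBA1C at chr12:49666968-49666997 (plus strand, coding sequence) and TUBB4B at chr9:140137974-140138003 (plus strand, coding sequence).
CFL1, to G852: GGGGctGGGGGGatcccagcaGGGGGaGGG
TUBB, to G2156: agaaaGGGatcaaGGGGGttGGGaGGGGGG
TUBA1B, to G1468: ctGGtacgtGGGtgaGGGGatGGaGGaaGG
TUBA1C, to G1437: agcagatagtgctgacGGagaGGatgaGGG
TUBB4B, to G1435: agttcgaGGaGGaGGctgaGGaGGaGGtGG

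The stretches in the CFL1 and TUBB 3′ UTRs hold 19 and 18 G among their 30 nt, most of them in runs of 3 or more. G2153 of TUBB, the strongest stop of its stretch, had 113 stops in the library labelled K+, 2690 in that labelled Na+, 136 and 116 refolded in K+ and Li+, 29 in unstressed and 102 in starved cells. G851 of CFL1 had 50, 1390, 24, 35, 12 and 22. Both were thus high in 1 library of the 6. Their E in the library labelled Na+ was 42.2 and 39.3, and in starved cells, where it was higher than in unstressed cells, it was 3.58 against 0.88 in TUBB and 2.27 against 0.49 in CFL1. The share of stops at G was also higher in starved than unstressed cells in 99.9% of 953 transcripts.

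Of the places described, 3 lie in coding sequences and hold shorter runs of G. G1468 of TUBA1B had 23, 932, 49, 65, 24 and 26 stops in the order given for TUBB. G1435 of TUBB4B had 22, 1036, 17, 21, 14 and 9, the largest E of the 10 mRNAs in the library labelled Na+ (56.6), and G1437 of TUBA1C had 79, 240, 39, 47, 24 and 24. The latter 2 lie 5 and 13 nt before the end of the coding sequence. With RT in K+ by the labels, none of these 5 stops reached an E of 10 in any DMS library, and the highest was 9.18 at G1437 of TUBA1C in starved cells. The E of TUBA1C is raised by its unlisted nucleotides.

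**Figure D5:**
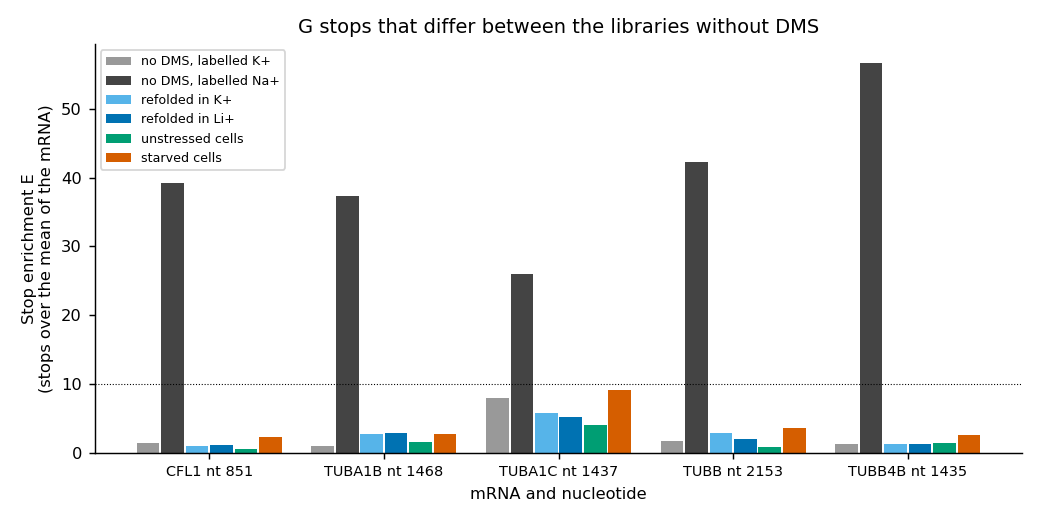
Enrichment E (stop count over the mean of the mRNA) at the strongest G of each of the 5 places, with 1 bar for each library; the dotted line marks an E of 10. The library labelled Na+ without DMS reaches 26.0 to 56.6, and the other 5 libraries stay below 10 at each place.

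The strongest stops at G and U that both libraries without DMS share were of another kind. G1755 of ACTB had 543 and 682 stops in the libraries labelled K+ and Na+, and 124, 184, 116 and 147 in the DMS libraries, and G304 of VIM had 537 and 510, then 156, 186, 8 and 52. At U, U178 of CFL1 had 209 and 192 stops without DMS and 28, 57, 9 and 8 with DMS, and U1944 of VIM 290 and 253, then 31, 46, 12 and 57. The stop counts differed less than 2-fold between the libraries without DMS. Relative to the mRNA, G1755 of ACTB had an E of 9.33 and 12.5 without DMS, 2.88 in unstressed cells and 11.2 in starved cells. The E of G304 of VIM was 0.38 in unstressed and 1.55 in starved cells. In TPM1 the strongest stop at G in the library labelled K+, G897, had 32 stops there and 12 in that labelled Na+.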

How the data were processed

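For the 6 libraries the authors kept perfect, single-position Bowtie alignments to hg19 transcripts and collapsed duplicates (SAMtools) ahead of trimming. The authors deposited the base, the RT stop count and a ratio for every nucleotide that reached 3 stops. In the values the ratio is relative to those nucleotides of a transcript that have the same base, so the mean of the whole transcript, and the base totals including nucleotides under 3 stops, were rebuilt from the deposited ratio, the count and the base composition, for which a base number that the ratios of every library with listed stops allow at their 2 decimals was found in 40 of 40 member and base pairs. Where several were allowed, that nearest to the composition of the transcript was taken, or for A the smallest not more than 10 below it. E is the count over that mean. Unlisted nucleotides were taken as 0 elsewhere.

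The 10 members were placed on GENCODE release 44 transcripts of GRCh37 by their listed bases, as were 10357 of 11031 transcripts with at least 15 listed nucleotides (93.9%, at least 97% of bases equal over at least 80%). Transcript folds needed 100 stops in both libraries, nucleotide folds 20 stops summed and 1 added to each count, and base shares a mean of 1 stop per nucleotide in all libraries. Poisson and Clopper-Pearson intervals are at 95%. Calculations used scipy 1.17.1, pandas 2.3.3 and numpy 2.4.6 under Python 3.11.15, with plots from matplotlib 3.10.9, and were tested on simulated data.

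Named are the 10 members, at most 5 genes in each direction of the cytoskeleton list by fold past 2-fold, the strongest A and C of each member in unstressed cells, the strongest G and U without DMS, and for each comparison the 3 nucleotides with the largest rise and fall among those with 50 stops summed; from these the text gives the ones it needs. Zipcode nucleotides, TTC5 and window positions were picked after their values were seen. The members and lists were chosen with earlier results of these data known. Groups follow the labels. No column was left unused. The sixth place of strong G stops and 1 marker gene are not reported here.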

Additional observations from a re-analysis of the deposited data

How the results depend on the processing

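No paired analysis was possible because each condition had 1 library, and for the same reason no replicate could be left out. Of the 66 alternative values, 42 stayed within 1.5 times a reported count or within a reported interval. Corrections for GC content and scaling to stops within 100 nt were added after seeing the data. Less the GC trend, 0 members (8 as reported) and 13 of the cytoskeleton list (31) were at least 2-fold lower in starved cells. With at least 50 stops, the median r was 0.65 between starved and unstressed cells, 0.51 between unstressed cells and K+ and 0.49 between starved cells and K+. On the top 5% of A and C lay 27.7% (K+), 27.5% (Li+), 31.7% (unstressed) and 30.8% (starved) of stops. The share of nucleotides past 2-fold between starved and unstressed cells was 25.2% by all stops (26.4% in other transcripts), 21.0% with at least 50 stops (17.0%), 19.7% within 100 nt (19.2%) and 7.54% at 3-fold (7.72%). For unstressed cells over K+ it was 10.6% at 3-fold (12.7%) and 17.3% within 100 nt (18.3%). For starved cells over K+ it was 33.8% with 50 stops (17.9%), 15.7% at 3-fold (9.45%) and 16.7% within 100 nt (15.1%). For K+ over Li+ it was 0.768% with 50 stops (1.30%) and 0.156% at 3-fold (0.725%). Without nucleotides of E at least 5 in the absence of DMS, starved cells and K+ shared the strongest A or C in 0 members (2). Nucleotides stronger in the library labelled K+ numbered 9 at E of at least 5, 0 at 20 and 9 with the pair's labels exchanged (1). With a median-of-ratios scaling 7 members were lower, TUBB being 1.79-fold lower. Apart from the construction of each alternative, the cause was not tested.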
